A study of Homo sapiens with 9 samples.

Results

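The EGF family ligands and the ERBB receptors were followed through RNA sequencing of AHR-depleted triple-negative breast cancer cells. The group was set by name as 10 genes of the 60649 listed in the count table: the ligands AREG, EREG, HBEGF, TGFA, BTC and NRG1, the receptors EGFR, ERBB2 and ERBB3, and the receptor inhibitor ERRFI1. Every one of the 10 was found under its symbol and passed the filter on low counts, together with 14274 genes in all. MDA-MB-231 is an established human breast cancer line of the triple-negative type, and the 9 libraries came from such cells, labelled with the word proliferation and grown in medium with serum. In 3 libraries (PLKO-GFP) the cells carried the control vector, which does not target AHR, in 3 the hairpin shAHR#2 and in 3 the hairpin shAHR#3. Both hairpins target AHR, which encodes the aryl hydrocarbon receptor, a ligand-activated transcription factor. The study's methods describe lentiviral delivery, puromycin selection and pooling of the resistant cells, so each group was a selected population and not a single clone. The methods number their AHR hairpins differently from the labels, so which target sequence belongs to which label is not settled here. Nothing in the labels says that replicates came from separate cultures, so p-values measure the spread between these libraries, which may be technical.

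EGF family ligands are made as membrane-bound precursors, and metalloproteases of the ADAM family cut them free. AREG, EREG, HBEGF, TGFA and BTC bind EGFR, whereas NRG1 binds ERBB3, and NRG1, EREG, HBEGF and BTC can also engage ERBB4. Bound receptors pair with each other, ERBB2 acting as a partner that has no ligand of its own and ERBB3 as one with little kinase activity. The signal runs through the RAS-ERK and PI3K-AKT cascades and raises the expression of feedback genes, among them ERRFI1 (also called MIG6), whose protein binds the kinase domain of EGFR and blocks it. In triple-negative breast cancer EGFR is often abundant, while ERBB2 is not amplified by definition.

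The first bases upstream of the genes on which the results turn are printed here because AHR acts with ARNT at DNA that holds the core GCGTG. The sequences are from RefSeq on GRCh38.p14 and cover the 250 bases before the transcription start, read 5′ to 3′ on the gene's strand, with GCGTG or its reverse complement CACGC in capitals. AREG lies at chr4:74444886-74445135 on the plus strand, EREG at chr4:74364895-74365144 on the plus strand, EGFR at chr7:55018767-55019016 on the plus strand and ERRFI1 at chr1:8026310-8026559 on the minus strand. The genes themselves (GENCODE release 44) span chr4:74445136-74455005 for AREG, chr4:74365145-74388749 for EREG, chr7:55019017-55211628 for EGFR and chr1:8004404-8026309 for ERRFI1.
AREG: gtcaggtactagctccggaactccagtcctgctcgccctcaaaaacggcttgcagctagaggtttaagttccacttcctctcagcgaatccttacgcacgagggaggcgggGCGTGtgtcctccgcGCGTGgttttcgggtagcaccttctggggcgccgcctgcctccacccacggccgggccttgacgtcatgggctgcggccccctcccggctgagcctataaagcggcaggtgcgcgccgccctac
EREG: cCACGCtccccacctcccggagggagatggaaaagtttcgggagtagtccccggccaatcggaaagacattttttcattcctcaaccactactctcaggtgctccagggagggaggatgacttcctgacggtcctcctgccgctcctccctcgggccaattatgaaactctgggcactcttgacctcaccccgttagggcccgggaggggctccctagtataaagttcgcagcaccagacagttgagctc
EGFR: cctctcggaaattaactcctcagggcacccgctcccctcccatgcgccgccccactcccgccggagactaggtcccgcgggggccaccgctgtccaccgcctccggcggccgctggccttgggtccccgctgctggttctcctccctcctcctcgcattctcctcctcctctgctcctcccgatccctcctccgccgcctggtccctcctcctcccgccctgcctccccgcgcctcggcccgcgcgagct
ERRFI1: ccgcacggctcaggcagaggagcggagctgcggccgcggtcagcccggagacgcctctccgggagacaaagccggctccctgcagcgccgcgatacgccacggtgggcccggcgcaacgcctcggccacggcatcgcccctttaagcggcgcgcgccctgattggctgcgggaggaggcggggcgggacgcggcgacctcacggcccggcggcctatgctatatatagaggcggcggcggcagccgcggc

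The AREG window held 2 copies of the core and the EREG window 1, whereas no copy was found in either of the EGFR windows searched or in the ERRFI1 window. Of 35116 promoter windows of this length, 32.2% held the core on either strand and 10.2% held 2 or more copies. Promoters of 8 of the 10 genes were matched, the others being NRG1 and ERBB3. Among the remaining matched genes the core was found once for BTC and once in the second of the TGFA windows, and not for HBEGF or ERBB2. A match is a string of letters and not a binding site, and its absence from 250 bases says nothing about AHR.

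AHR itself was at 118 ± 3.32 CPM in the PLKO-GFP libraries (CPM, the counts-per-million scale after TMM scaling of libraries, SD, n = 3), at 35.3% ± 0.912 of that with shAHR#2 and at 40.5% ± 3.39 with shAHR#3. Total counts per library ranged from 15991396 to 20374460 over the 9 libraries. Keratin genes KRT8 and KRT18 (284 ± 9.27 and 304 ± 5.65 CPM in the control) and vimentin (VIM, 2634 ± 27.0 CPM) were abundant, and the epithelial markers EPCAM and CDH1 were low at 6.62 ± 0.161 and 0.909 ± 0.182 CPM. CDH1 was at 1.80 ± 0.318 CPM under shAHR#2 and 4.16 ± 0.455 under shAHR#3, and VIM at 3875 ± 64.3 and 3330 ± 36.1 CPM. Of 6 markers of hormone receptor positive luminal cells, PGR was listed at 0 in every library and ESR1 at no more than 4 reads. Their summed level was 19.3 to 21.6 CPM in the control libraries, 24.0 to 27.1 with shAHR#2 and 22.7 to 27.1 with shAHR#3. The fibroblast markers summed to 14.9 to 18.0 CPM in the control libraries, 14.4 to 15.8 under shAHR#2 and 29.5 to 32.5 under shAHR#3. Leukocyte markers summed to 1.02 to 1.16, 1.14 to 2.25 and 1.29 to 2.10 CPM, with CD3E and MS4A1 at 0. PTPRC was at 1 to 4 reads in the control, 14 to 33 under shAHR#2 and 14 to 30 under shAHR#3. CD14 went the other way, at 17 to 21 reads in the control, 4 to 8 under shAHR#2 and 9 to 16 under shAHR#3. The 6 epithelial markers summed to 896 to 946, 1044 to 1088 and 1216 to 1306 CPM in the same order of groups, the 6 mesenchymal ones to 6598 to 6705, 10038 to 10323 and 8376 to 8416 CPM, and the 3 basal ones to 1.86 to 3.19, 4.05 to 6.01 and 4.99 to 5.68 CPM. The part of these marker levels in the results was not tested. Being bulk RNA, the values cannot tell fewer cells with a message from less message per cell.

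Changes were called at an adjusted p under 0.05 in edgeR's quasi-likelihood F-test, with p-values adjusted over all 14274 genes by the Benjamini-Hochberg method. With shAHR#2, 8 of the 10 genes were called (6 higher and 2 lower), where 65.8% of all tested genes were called, 32.6% as higher and 33.2% as lower. With shAHR#3, 8 were called as well (7 higher and 1 lower), against 54.4% of all tested genes, 26.9% as higher and 27.5% as lower. The median log2 fold change of the 10 was 0.37 with shAHR#2 and 0.24 with shAHR#3, and that of all tested genes was within 0.01 of 0 in both. Set directly against each other, the hairpins differed in all 10 genes (4 higher and 6 lower with shAHR#3), against 42.3% of all tested genes, 21.9% as higher and 20.4% as lower. With so large a share of all genes called, being called says little about any single gene, and the size and direction of each change are given below. The direct difference in HBEGF was no longer called without shAHR#2 replicate 2 (adjusted p = 0.0836), shAHR#2 replicate 3 (0.0713) or shAHR#3 replicate 1 (0.142), and that in ERBB3 without shAHR#2 replicate 3 (0.0556). The comparisons with the control share the same 3 control libraries.

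**Figure D1:**
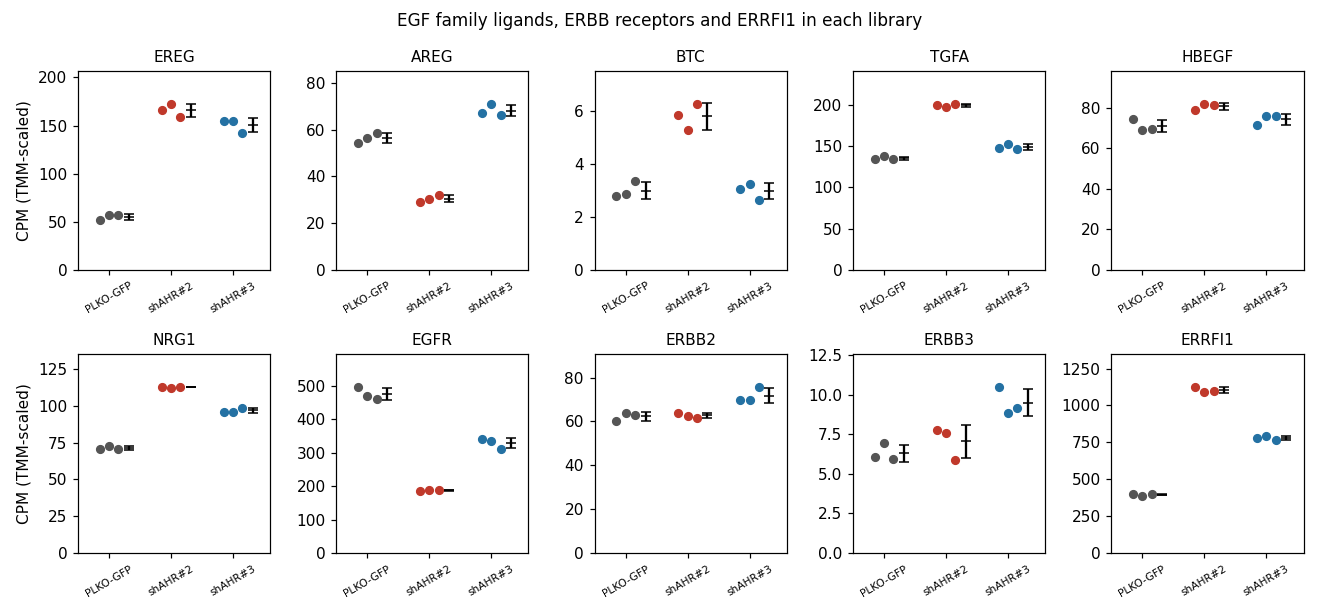
Expression of the 10 genes in each of the 9 libraries, in TMM-scaled CPM on axes that start at 0. Dots are libraries and the bars beside them the mean ± SD of 3, and EREG, EGFR and ERRFI1 show no overlap between the control and either hairpin, while AREG lies below the control with shAHR#2 and above it with shAHR#3.

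EREG, which encodes epiregulin, a ligand of EGFR and ERBB4, rose the most of the ligands and did so with both hairpins. The control libraries stood at 51.2, 57.2 and 56.5 CPM, the shAHR#2 libraries at 167, 172 and 159 CPM and the shAHR#3 libraries at 155, 154 and 142 CPM. All 6 AHR-depleted libraries were above all 3 control libraries. The rise was 3.01-fold with shAHR#2 (log2 fold change 1.59, standard error 0.043, adjusted p = 3.79e-28 by edgeR) and 2.73-fold with shAHR#3 (1.45, standard error 0.042, adjusted p = 2.15e-26). Between the hairpins the difference was small, with shAHR#3 lower by a log2 fold change of -0.14 (adjusted p = 0.00227). Changes against the control at least as large as those of EREG were seen in 5.06% of all tested genes with shAHR#2 and 3.69% with shAHR#3.

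AREG, the gene of amphiregulin, another EGFR ligand that lies close to EREG on chromosome 4, moved in opposite directions with the 2 hairpins. The control libraries held 54.4, 56.5 and 58.3 CPM of AREG, against 29.0, 30.4 and 31.9 CPM in the shAHR#2 libraries and 67.2, 71.0 and 66.2 CPM in the shAHR#3 libraries. The 3 groups did not overlap. AREG fell to 53.9% ± 2.59 of the control mean (SD, n = 3) with shAHR#2, a log2 fold change of -0.89 (standard error 0.054, adjusted p = 2.75e-17 by edgeR). With shAHR#3 it rose to 121% ± 4.48, a log2 fold change of 0.27 (standard error 0.047, adjusted p = 5.89e-06). The difference between the hairpins was 2.24-fold (log2 fold change 1.16, standard error 0.052, adjusted p = 2.15e-20), and differences as large as that were seen in 3.06% of all tested genes.

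BTC encodes betacellulin, which binds EGFR and ERBB4, and lies 290 kb beyond AREG, whereas EREG and AREG are 56.4 kb apart. Its counts were low, from 49 to 66 reads per control library, 82 to 109 with shAHR#2 and 54 to 63 with shAHR#3. The shAHR#2 libraries lay above the control and the shAHR#3 libraries overlapped it. BTC rose 1.94-fold with shAHR#2 (log2 fold change 0.95, standard error 0.16, adjusted p = 2.54e-06). With shAHR#3 the log2 fold change was -0.01 (95% interval -0.37 to 0.34, adjusted p = 0.951), and at this depth a change smaller than that interval could not be detected. EREG, AREG and BTC, which lie near each other on chromosome 4, therefore had 3 different patterns. EREG rose with both hairpins, AREG fell with shAHR#2 and rose with shAHR#3, and BTC rose with shAHR#2. EGF, also on chromosome 4, was called with neither hairpin. The 50 tested genes that flank EREG (25 on either side) had a median log2 fold change of -0.33 with shAHR#2 and -0.20 with shAHR#3, and those that flank AREG of -0.29 and -0.18. These windows overlap and are not separate observations. All 535 tested genes of chromosome 4 had medians of -0.30 and -0.23, so the lower medians were not particular to this region.

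TGFA, the gene of transforming growth factor alpha, had the highest CPM of the ligands in the control and rose with both hairpins, though mainly with shAHR#2. Control libraries stood at 135, 138 and 134 CPM, shAHR#2 libraries at 199.985, 198 and 202 CPM and shAHR#3 libraries at 148, 153 and 147 CPM. The groups did not overlap. TGFA was 1.47-fold higher with shAHR#2 (log2 fold change 0.56, standard error 0.031, adjusted p = 2.95e-18) and 1.10-fold higher with shAHR#3 (0.14, standard error 0.031, adjusted p = 2.58e-04).

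NRG1 encodes neuregulin 1, the ligand of ERBB3 among the genes considered. Control libraries held 70.8, 72.6 and 70.4 CPM of it, those of shAHR#2 113, 112 and 113 CPM and those of shAHR#3 96.0, 95.8 and 98.7 CPM, without overlap. NRG1 was 1.58-fold higher under shAHR#2 and 1.36-fold higher under shAHR#3 (adjusted p = 3.67e-18 and 6.91e-13 by edgeR). HBEGF, the gene of heparin-binding EGF-like growth factor, changed least of the ligands that were called with shAHR#2. Its control libraries were at 74.5, 69.0 and 69.3 CPM, the shAHR#2 libraries at 78.8, 81.8 and 81.2 CPM and the shAHR#3 libraries at 71.2, 75.8 and 75.6 CPM. Only the shAHR#2 libraries lay clear of the control, with a 1.14-fold rise (log2 fold change 0.18, standard error 0.042, adjusted p = 2.53e-04). With shAHR#3 the log2 fold change was 0.07 (95% interval -0.02 to 0.15, adjusted p = 0.183). HBEGF lies on chromosome 5, whose 656 tested genes had a median log2 fold change of -0.48 with shAHR#2 and -0.26 with shAHR#3. Relative to the median of the 50 genes that flank it, HBEGF was higher by 0.58 and 0.26 on the log2 scale.

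EGFR, the receptor for AREG, EREG, HBEGF, TGFA and BTC, fell with both hairpins and was the only one of the 10 genes to do so. The control libraries were at 497, 471 and 461 CPM, the shAHR#2 libraries at 186, 189 and 188 CPM and the shAHR#3 libraries at 341, 334 and 313 CPM. The 3 groups did not overlap. EGFR was at 39.4% ± 0.326 of the control mean (SD, n = 3) with shAHR#2, a log2 fold change of -1.34 (standard error 0.032, adjusted p = 7.17e-30 by edgeR). With shAHR#3 it was at 69.2% ± 3.09, a log2 fold change of -0.53 (standard error 0.030, adjusted p = 9.84e-18), and so was 1.75-fold higher than with shAHR#2 (log2 fold change 0.81, adjusted p = 4.69e-22). The 50 tested genes that flank EGFR on chromosome 7 had a median log2 fold change of -0.31 with shAHR#2 and -0.22 with shAHR#3, while the median of the whole chromosome was -0.02 and -0.07. Relative to the flanking genes EGFR stood at -1.03 and -0.31 on the log2 scale.

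**Figure D2:**
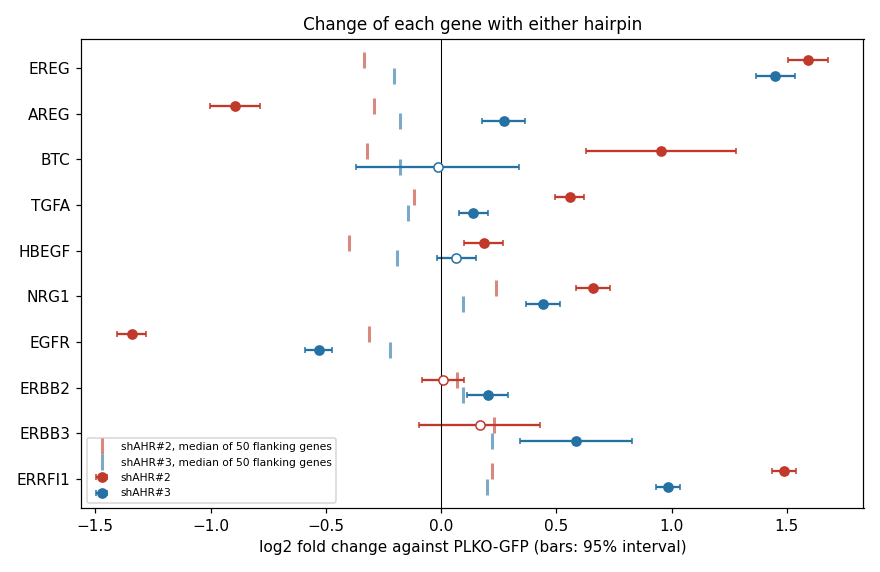
Log2 fold change of each gene against PLKO-GFP with shAHR#2 (red) and shAHR#3 (blue), with its 95% interval, filled where called at an adjusted p under 0.05 and open where not. Vertical ticks give the median change of the 50 tested genes flanking each gene, and EGFR lies to the left of 0 with both hairpins, EREG and ERRFI1 to the right, and AREG on either side.

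Neither of the other receptors was called as lower with either hairpin. ERBB2, the preferred partner of the other receptors, was counted at 60.03, 64.1 and 63.1 CPM among control libraries, at 63.9, 62.5 and 61.8 CPM among those of shAHR#2 and at 69.96, 69.8 and 75.7 CPM among those of shAHR#3. With shAHR#2 the libraries lay within the range of the control (log2 fold change 0.01, 95% interval -0.08 to 0.10, adjusted p = 0.886), while all shAHR#3 libraries were above it (115% ± 5.34 of its mean, log2 fold change 0.20, adjusted p = 1.50e-04). ERBB3, the receptor for NRG1, had 107 to 139 reads in each control library, 93 to 145 with shAHR#2 and 173 to 204 with shAHR#3. It rose to 150% ± 13.7 of the control mean with shAHR#3 (log2 fold change 0.59, standard error 0.12, adjusted p = 7.65e-05), and with shAHR#2 its log2 fold change was 0.17 (95% interval -0.10 to 0.43, adjusted p = 0.262). The 50 genes flanking ERBB3 had medians of 0.23 with shAHR#2 and 0.22 with shAHR#3. ERBB4 was at 0 to 6 reads in every library and was not tested.

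ERRFI1, the intracellular inhibitor of EGFR, was the most highly expressed of the 10 genes per length and rose with both hairpins. Control libraries were at 396, 389 and 397 CPM, shAHR#2 libraries at 1124, 1091 and 1099 CPM and shAHR#3 libraries at 781, 793 and 766 CPM. The groups were far apart relative to the spread within each. The rise was 2.80-fold with shAHR#2 (log2 fold change 1.49, standard error 0.026, adjusted p = 1.75e-34) and 1.98-fold with shAHR#3 (0.99, standard error 0.025, adjusted p = 3.89e-28). Between the hairpins the log2 difference was -0.50 (adjusted p = 3.23e-19), so that ERRFI1 was higher and EGFR lower with shAHR#2 than with shAHR#3. The 50 genes flanking ERRFI1 on chromosome 1 had medians of 0.22 and 0.20.

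Levels of different genes were compared per length of exon (RPKM, which is CPM per kilobase, over the union of exons in GENCODE release 44). In the control the order was ERRFI1 (94.3 ± 1.12 RPKM), AREG (34.4 ± 1.21), EGFR (29.9 ± 1.16), TGFA (27.6 ± 0.399), HBEGF (23.7 ± 1.04), EREG (9.62 ± 0.573), ERBB2 (6.05 ± 0.204), NRG1 (3.33 ± 0.0529), BTC (1.13 ± 0.117) and ERBB3 (0.540 ± 0.0461), as mean ± SD of 3 libraries. Neighbours in that order did not overlap, but with the length of the longest transcript in place of the union EGFR (48.1 RPKM) overlapped AREG (45.7), ERBB2 (12.7) overlapped EREG (11.9), and BTC (1.13) overlapped ERBB3 (1.01). With shAHR#2 the order after ERRFI1 (264 ± 4.12 RPKM) was TGFA (40.7 ± 0.371), EREG (29.1 ± 1.19), HBEGF (27.0 ± 0.523), AREG (18.5 ± 0.891) and EGFR (11.8 ± 0.0973). With shAHR#3 it was ERRFI1 (187 ± 3.27 RPKM), AREG (41.5 ± 1.54), TGFA (30.4 ± 0.704), EREG (26.3 ± 1.22), HBEGF (24.8 ± 0.862) and EGFR (20.7 ± 0.923), where EREG and HBEGF overlapped. EREG thus moved from the sixth place in the control to the third with shAHR#2 and the fourth with shAHR#3, and EGFR from the third to the sixth with both. By the longest transcript, EGFR was the fourth with shAHR#3 and overlapped EREG there (33.3 and 32.6 RPKM).

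**Figure D3:**
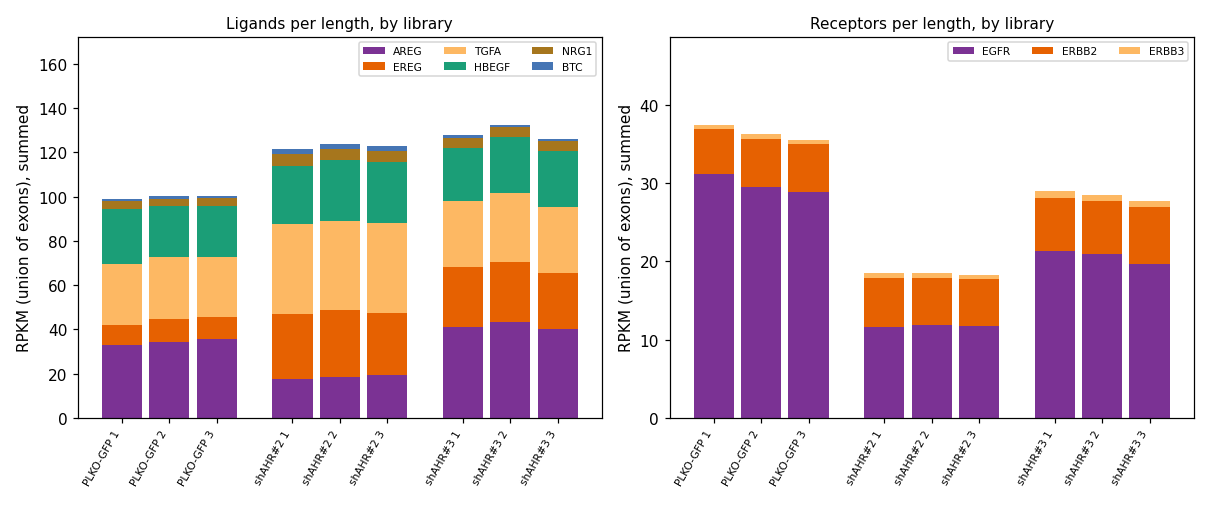
Stacked levels of the 6 ligands (left) and 3 receptors (right) in each library, in RPKM over the union of exons. The ligand columns reach 98.9 to 100.4 RPKM in the control and 121 to 132 RPKM with the hairpins, and the receptor columns 35.6 to 37.5 RPKM in the control, 18.3 to 18.6 with shAHR#2 and 27.7 to 29.1 with shAHR#3.

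Summed per length, the 6 ligands were at 99.8 ± 0.823 RPKM in PLKO-GFP, 123 ± 1.21 under shAHR#2 and 129 ± 3.37 under shAHR#3, and the 3 receptors at 36.5 ± 0.976, 18.5 ± 0.145 and 28.4 ± 0.664 RPKM (SD, n = 3 each). AREG took 34.4% ± 0.936 of the ligand total among control libraries, 15.1% ± 0.628 under shAHR#2 and 32.2% ± 0.349 under shAHR#3. EREG took 9.64% ± 0.502, 23.7% ± 0.955 and 20.5% ± 0.714. TGFA was the largest ligand with shAHR#2 at 33.2% ± 0.498, where AREG was the largest in the other groups. EGFR made up 81.9% ± 1.03 of the receptor total among control libraries, 63.8% ± 0.772 under shAHR#2 and 72.6% ± 1.65 under shAHR#3, and ERBB2 16.6% ± 0.943, 32.9% ± 0.432 and 24.5% ± 1.69. These sums are described without a test, and weight each gene by an annotated length.

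Of the rest of the family, EGF itself was at 88 to 149 reads per library and passed the test with neither hairpin (log2 fold change -0.14, 95% interval -0.41 to 0.13, with shAHR#2 and 0.10, interval -0.16 to 0.35, with shAHR#3). EPGN (at most 3 reads), NRG2 (at most 12), NRG4 (at most 6) and NRG3, listed at 0 in every library, were not tested.

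Genes that act on the release of the ligands from the membrane were mostly higher. Of 11 such genes, all tested, 7 were called as higher and 3 as lower with shAHR#2, and 8 as higher and 3 as lower with shAHR#3, with list medians of 0.38 and 0.37 on the log2 scale. Among all tested genes 32.6% were called as higher with shAHR#2 and 26.9% with shAHR#3. This list, like those that follow, was chosen with earlier results of these data known, so its counts are a description only. The metalloprotease ADAM15 rose with both hairpins (0.90 for shAHR#2, adjusted p = 3.47e-22, and 0.51 for shAHR#3, adjusted p = 2.79e-14). RHBDF2, the gene of a partner protein that carries ADAM17 to the cell surface, rose as well (0.85 and 0.54, adjusted p = 1.23e-13 and 1.54e-08). ADAM17, the main sheddase of AREG, TGFA and HBEGF, was 0.14 and 0.22 higher (adjusted p = 0.0107 and 1.06e-04). ADAM10, the main sheddase of BTC, changed by 0.11 on the log2 scale under shAHR#3 (adjusted p = 7.01e-04) and stood at -0.01 under shAHR#2 (adjusted p = 0.811). The largest rise in this list was in a gene of opposite role, TIMP3, which encodes a secreted inhibitor of metalloproteases. Its control mean of 752 ± 2.24 CPM compares with 2284 ± 8.68 under shAHR#2 (log2 fold change 1.60, adjusted p = 8.13e-36) and 2197 ± 38.4 under shAHR#3 (1.55, adjusted p = 5.36e-35). NRDC, an enhancer of ADAM cleavage, fell by 0.29 and 0.19 (adjusted p = 2.72e-11 and 5.57e-07), and FURIN, which matures the ADAM precursors, by 0.17 and 0.22 (adjusted p = 0.00234 and 2.23e-04).

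Genes that restrain or remove the receptors were called in both directions. Of 19 such genes 18 were tested, with 11 called as higher and 6 as lower with shAHR#2, and 5 and 5 with shAHR#3, and medians of 0.18 and 0.02. The 10 of 18 called with shAHR#3 are near the 54.4% called among all tested genes. With shAHR#2 the share among all tested genes was 65.8%. By direction, 32.6% of all tested genes were called as higher with shAHR#2 and 26.9% with shAHR#3, and 33.2% and 27.5% as lower. Calls as higher outnumbered calls as lower in this list with shAHR#2 only. LRIG1, a membrane protein that lowers ERBB receptor levels, had log2 fold changes of 1.28 under shAHR#2 (adjusted p = 4.97e-08) and 0.93 under shAHR#3 (3.22e-05). Its counts were low, between 37 and 51 in the control libraries, 77 and 107 under shAHR#2 and 69 and 93 under shAHR#3. PTPRJ, a receptor phosphatase that acts on EGFR, rose by 0.72 and 0.76 (adjusted p = 5.11e-24 and 2.41e-24), and TNK2, a kinase linked to EGFR turnover, by 0.66 and 0.68 (adjusted p = 5.60e-11 and 2.16e-11). The endocytic adaptors EPN1 (2.01-fold and 1.29-fold lower, adjusted p = 4.44e-23 and 5.11e-11) and EPS15 (log2 fold changes -0.40 and -0.32, adjusted p = 3.22e-10 and 5.48e-08) fell, as did the phosphatase PTPN1 (-0.40 and -0.43, adjusted p = 1.93e-14 and 4.14e-15). The ubiquitin ligase CBL was also lower (-0.22 and -0.27, adjusted p = 5.54e-07 and 1.29e-08).

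Signal relay genes changed little in size. All 26 were tested, with 16 called as higher and 5 as lower with shAHR#2 and 11 and 5 with shAHR#3, and medians of 0.23 and 0.08, where 65.8% and 54.4% of all tested genes were called. The 16 of 26 called with shAHR#3 are near that share. By direction, 32.6% of all tested genes were called as higher with shAHR#2 and 26.9% with shAHR#3, and 33.2% and 27.5% as lower. In this list, calls as higher outnumbered calls as lower with both hairpins. The adaptors CRK (0.50 and 0.30) and SHC1 (0.41 and 0.30) and the GTPase HRAS (0.28 and 0.36) rose with both hairpins. The exchange factor SOS1 (-0.57 and -0.32), the phospholipase PLCG1 (-0.43 and -0.22) and the kinase ARAF (-0.36 and -0.18) fell with both. Adjusted p-values of these 6 genes were between 1.03e-14 for SHC1 and 0.00609 for ARAF.

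Genes that EGF is known to induce were mostly higher. Of 24 on the list 22 were tested, 19 were called as higher and 1 as lower with shAHR#2 (median log2 fold change 0.56), and 16 as higher and 1 as lower with shAHR#3 (median 0.26), while EGR3 at 0 to 7 reads and IER3, listed at 0 in every library, were not tested. The shares called as higher among all tested genes were 32.6% and 26.9%. Since the list was chosen with earlier results of these data known, its counts are a description and not a test. By the mean of both hairpins PLAUR, the urokinase receptor, rose most (1.33 and 0.67, adjusted p = 8.98e-25 and 7.02e-15), and KLF10 (0.64 and 0.57, adjusted p = 1.34e-16 and 7.71e-15) and JUNB (0.62 and 0.63, adjusted p = 9.09e-07 and 5.24e-07), both transcription factors, came next by that mean, although DUSP5 (0.79), LIF (0.77) and others were above them with shAHR#2 alone. The ERK phosphatase DUSP6 rose by 0.69 and 0.39 (adjusted p = 1.55e-22 and 8.81e-15) and the ERK-dependent factor ETV5 by 0.66 and 0.45 (4.07e-18 and 6.05e-13). The single lower genes were FOS with shAHR#2 (-1.37, adjusted p = 1.40e-06) and JUN with shAHR#3 (-0.18, adjusted p = 1.45e-04), named after their values were seen. FOS, at 61 to 66 reads per control library, was higher with shAHR#3 (0.60, adjusted p = 0.00266), and JUN was higher with shAHR#2 (0.58, adjusted p = 1.33e-16).

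**Figure D4:**
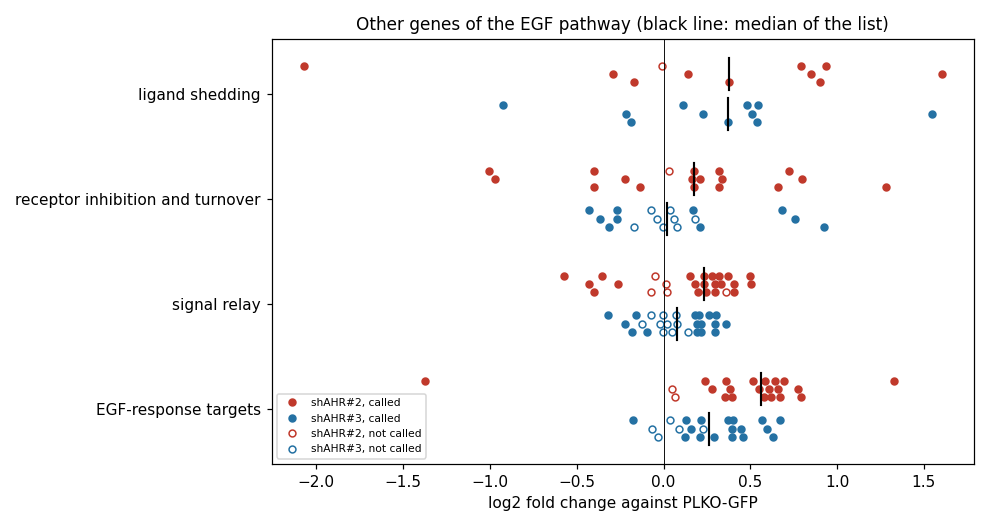
Log2 fold change of every tested gene of 4 other lists of the EGF pathway with shAHR#2 (red) and shAHR#3 (blue), filled where called, with a black line at the median of each list. The EGF-response targets lie mostly to the right of 0, at medians of 0.56 and 0.26, and the turnover genes on both sides. The lists were chosen with earlier results of these data known.

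Patterns over the 9 libraries were compared by Pearson's r of log2 CPM among the 9553 genes that averaged at least 3 on the log2 CPM scale. EREG was most like LAMA4 (r = 0.998), CSTB (0.997) and TOB1 (0.997), although LAMA4 rose far more (log2 fold changes 4.57 and 4.16) and CSTB less (0.50 and 0.48). Among the genes most like EGFR were the noncoding RNA NORAD (0.999) and ALDH7A1 (0.998), which fell by 0.88 and 0.97 on the log2 scale with shAHR#2. Since the 9 libraries form 3 tight groups, values this high are common, with 616 genes above 0.95 for EREG and 794 for EGFR, and they are given as a description.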

How the data were processed

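RNA of 9 MDA-MB-231 libraries (3 PLKO-GFP, 3 shAHR#2 and 3 shAHR#3) was sequenced by the authors from stranded mRNA libraries, single end, and aligned to GRCh38.p13 with STAR. The submitters' processing notes also name FastQC, featureCounts and Subread. The annotation release and the strand setting are not given in the sources used here, so counts of overlapping genes are uncertain. The authors deposited whole-number read counts per gene, not normalized, with totals of 15991396 to 20374460 per library. Within each group, counts of replicates were further apart than sampling alone gives (chi-square divided by its degrees of freedom, 1.76 to 4.24), so none was treated as a copy.

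Counts were analysed with R 4.3.3, edgeR 4.0.16 and DESeq2 1.42.0. Genes passing filterByExpr (minimum count 10, minimum total 15) were kept, which left 14274 of 60649, and libraries were scaled by TMM. One quasi-likelihood model with 3 group means was fitted to all 9 libraries. Adjusted p-values are Benjamini-Hochberg over all genes tested, called under 0.05. Standard errors were derived from the fold change and the F statistic, and 95% intervals from the standard error. The fits were tried on simulated counts in which far fewer genes changed than were called here. That trial was a check of the code only. Positions and lengths are from GENCODE release 44. The members and gene lists were chosen with earlier results of these data known. Genes named besides the 10 were up to 3 rises and 3 falls per list called with both hairpins and averaging at least 1 on the log2 CPM scale, ranked by mean change, and the 3 genes most correlated with the member of largest shared rise and of largest shared fall. A gene that this rule names is not reported here. ADAM10, ADAM17, CBL, DUSP6 and ETV5 were added for their role after their values were seen. The alternatives were DESeq2, DESeq2 size factors, no filter on low counts, a fit of only those groups being compared, a block for the replicate number and leaving out each library.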

Additional observations from a re-analysis of the deposited data

Results flagged for a closer look

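All 10 genes differed between the 2 hairpins when these were compared directly (edgeR, quasi-likelihood F-test, Benjamini-Hochberg adjusted, 3 libraries each), which is why they are listed here, where 42.3% of all tested genes were called in that comparison. On the log2 scale, shAHR#3 minus shAHR#2 was 1.16 for AREG, 0.81 for EGFR, 0.42 for ERBB3 and 0.19 for ERBB2, which were higher with shAHR#3. It was -0.97 for BTC, -0.50 for ERRFI1, -0.42 for TGFA, -0.22 for NRG1, -0.14 for EREG and -0.12 for HBEGF, which were lower with it. AREG was the only one of the 10 that was called in opposite directions against the control. HBEGF had the weakest evidence (adjusted p = 0.0217), and its call was lost without shAHR#2 replicate 2, shAHR#2 replicate 3 or shAHR#3 replicate 1. The call of ERBB3 was lost without shAHR#2 replicate 3 (adjusted p = 0.0556). AHR stood at 35.3% of the control with shAHR#2 and at 40.5% with shAHR#3, and its part in these differences was not tested.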

How the results depend on the processing

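The number of the 10 genes called was 8 with shAHR#2 and 8 with shAHR#3 under every alternative tried, and between 8 and 10 for the hairpins compared directly. DESeq2 called 8726, 7005 and 5342 of all tested genes in the 3 comparisons, against 9390, 7771 and 6031. Of 330 recomputed changes of the 10 genes, 322 kept their direction and their side of the threshold, 4 lost the threshold and 4 changed sign. The losses were all between the hairpins, for HBEGF (-0.11 without shAHR#2 replicate 2, -0.11 without shAHR#2 replicate 3 and -0.09 without shAHR#3 replicate 1) and for ERBB3 (0.31 without shAHR#2 replicate 3, adjusted p = 0.0556). Signs changed only for values that were not called: ERBB2 with shAHR#2 (-0.018 to 0.027 with single libraries left out) fell below 0 when the first replicate of PLKO-GFP or of shAHR#2 was left out, and BTC with shAHR#3 (-0.078 to 0.075) rose above 0 when the last replicate of PLKO-GFP or of shAHR#3 was. Among the other named genes, uncalled differences between the hairpins changed sign for 3 genes, FURIN (-0.082 to 0.011) without shAHR#2 replicate 2, JUNB (-0.038 to 0.048) without replicate 3 of either hairpin and TNK2 (-0.063 to 0.077) without shAHR#3 replicate 3. Without shAHR#3 replicate 2 the difference in AHR between the hairpins was 0.13 (adjusted p = 0.0626). The cause of these shifts was not tested.

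The labels number the replicates alike in each group. Deviations from the group means correlated at 0.003 to 0.0578 between same-numbered libraries (median 0.028). Between differently numbered ones they correlated at -0.068 to 0.023 (median -0.018). Deviations within a group cancel out, so the same-numbered and differently numbered values depend on each other. The same-numbered values were all positive but small, and the numbers were not taken as pairs. With the replicate block, 9406, 7844 and 6107 genes were called in all, and 8, 8 and 10 of the members. Per-length levels depend on the annotated length, and EGFR and AREG in the control could not be ordered with the longest transcript. Depth limits BTC and ERBB3, whose libraries held 49 to 109 and 93 to 204 reads.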

Other observations

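The genes given here fall outside the naming rule and were chosen after their values were seen. ADAM12, a metalloprotease that can release HBEGF, had log2 fold changes of -2.07 under shAHR#2 (adjusted p = 2.67e-07, edgeR) and -0.93 under shAHR#3 (0.00214). Its counts were between 42 and 49 in control libraries, 7 and 14 under shAHR#2 and 22 and 29 under shAHR#3. CBLB, a ubiquitin ligase for active EGFR, was lower with shAHR#2 (-0.97, adjusted p = 3.22e-10) and at -0.17 with shAHR#3 (adjusted p = 0.120). Among luminal markers, FOXA1 was listed at 0 in every control library. Its reads numbered 17 to 27 under shAHR#2 and 25 to 26 under shAHR#3. TFF1 went from 2 to 5 control reads to 30 to 34 and 58 to 101 in the same order. The more abundant luminal markers GATA3 and SPDEF showed no rise of that size. Group means for GATA3 (PLKO-GFP, shAHR#2, shAHR#3) were 10.5, 10.2 and 9.94 CPM. Those for SPDEF were 9.82, 11.7 and 9.70 CPM. PGR stayed at 0, and ESR1 never exceeded 4 reads.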
